A study of Mus musculus with 2 samples.

Results

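The miR-17-92 cluster is a set of 6 microRNA (miRNA) hairpins, Mir17, Mir18, Mir19a, Mir20a, Mir19b-1 and Mir92-1, encoded by the host transcript Mir17hg on mouse chromosome 14. The members were chosen by position, as the 6 of 2202 counted miRNA genes that GENCODE M21 places in this host gene. No measured value entered this rule, but the members and the gene lists used below were chosen with earlier results of these data known. The data are sequencing libraries of RNA shorter than 30 nt, made from total RNA of left cerebral cortex. The mice were males of the strain B6CASTF1/J (C57BL/6J crossed with CAST/EiJ, first generation) at 4 days of age, with no treatment named in the labels. The 2 libraries form 1 group and carry the labels replicate 1 and replicate 2. Since the labels give them different male numbers and the same donor identifier, it is not known whether they stand for separate animals, and the spread between them may be technical.

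A miRNA gene is read as a hairpin within a longer primary transcript. The nuclease Drosha cuts the hairpin out, Dicer trims it to a short duplex, and 1 arm is loaded into an Argonaute protein, where its seed (bases 2 to 8) pairs with target mRNAs. Hairpins of a single primary transcript are transcribed together, while their cutting, loading and decay can differ. The miR-17-92 cluster is transcribed under the control of Myc and E2F factors, is amplified in human lymphomas, and in the mouse embryonic cortex it favours the expansion of neural progenitors. Among its known targets are Cdkn1a and Bcl2l11 for the miR-17 family and Eomes, a gene of intermediate progenitors, for miR-92.

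The 6 mature guide arms fall into 4 seed families, and they are shown with the seed in capitals because the family decides which mRNAs each recognises. Sequences are from RefSeq on GRCm38.p6, the mm10 assembly, and all 6 members matched an entry.
miR-17-5p (Mir17): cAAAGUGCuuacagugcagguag
miR-20a-5p (Mir20a): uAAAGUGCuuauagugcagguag
miR-18a-5p (Mir18): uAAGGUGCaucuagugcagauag
miR-19a-3p (Mir19a): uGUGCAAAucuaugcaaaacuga
miR-19b-3p (Mir19b-1): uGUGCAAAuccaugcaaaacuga
miR-92a-3p (Mir92-1): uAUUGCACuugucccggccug

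Mir17 and Mir20a share their seed, and their guides are identical at 21 of 23 bases. Mir19a and Mir19b-1 also share a seed, and their guides differ by a single substitution, C11U counted from the 5′ end of miR-19b-3p. Mir18 and Mir92-1 each stand alone in the cluster. The guide of Mir17, Mir18 and Mir20a is the 5′ arm, and that of Mir19a, Mir19b-1 and Mir92-1 is the 3′ arm. The counts are per hairpin and do not separate the arms.

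Mir17hg spans chr14:115042879-115046727 on the plus strand (mm10). All 6 hairpins lie in its exon 2 and on the same strand, within 836 nt. Mir17 comes first at chr14:115043671-115043754, then Mir18 at 115043851-115043946, Mir19a at 115044000-115044081, Mir20a at 115044157-115044263, Mir19b-1 at 115044305-115044391 and Mir92-1 at 115044427-115044506. The gaps between neighbouring hairpins run from 35 nt, before Mir92-1, to 96 nt, between Mir17 and Mir18. Their Ensembl identifiers, in this order, are ENSMUSG00000065508.1, ENSMUSG00000065403.1, ENSMUSG00000065416.1, ENSMUSG00000065442.1, ENSMUSG00000076256.1 and ENSMUSG00000076062.1. The hairpins are 80 to 107 nt long, and 43.7% to 47.5% of their bases are G or C.

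Whether a guide occurs in more than 1 annotated hairpin bears on the counts, because in the layout of these tables reads placed at several sites have an entry of their own, outside the genes. The guides of Mir17, Mir18, Mir19a and Mir20a were found in no other RefSeq hairpin and in no GENCODE transcript outside their own gene and Mir17hg. Those of Mir19b-1 and Mir92-1 were each found whole in 1 further hairpin, Mir19b-2 and Mir92-2 of the X-linked Mir106a-363 cluster. The whole genome was not searched. These hairpins are shown with the longest stretch that each pair shares in capitals, 25 nt for miR-19b and 22 nt for miR-92a.
Mir19b-1: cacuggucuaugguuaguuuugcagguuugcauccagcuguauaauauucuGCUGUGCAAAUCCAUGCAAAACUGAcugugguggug
Mir19b-2: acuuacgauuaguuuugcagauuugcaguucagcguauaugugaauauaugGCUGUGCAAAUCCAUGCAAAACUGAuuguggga
Mir92-1: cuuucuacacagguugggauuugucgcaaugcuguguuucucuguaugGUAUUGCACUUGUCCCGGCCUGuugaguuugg
Mir92-2: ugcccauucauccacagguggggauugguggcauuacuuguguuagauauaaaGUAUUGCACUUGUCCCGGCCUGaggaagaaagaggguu

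In both pairs the shared stretch covers the entire guide. A read of the guide alone therefore has at least 2 annotated sites, and the counts of Mir19b-1 and Mir92-1 are lower limits if reads with several sites were left uncounted. For the other 4 members the longest run shared with any other annotated hairpin was 13 to 17 nt, shorter than the guide.

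The libraries held 10029659 and 6800067 reads, of which 2999032 and 3577964 were counted on the own strand of a miRNA gene. Of all reads, 46.1% and 39.8% had several sites. The libraries stood apart before any member was compared. Summed over 18 neuron-enriched miRNA genes, the replicate 1 library had 43009 CPM (counts scaled to the own-strand miRNA total) with all 18 detected. The library labelled replicate 2 had 1323 CPM, with 14 detected and 0 counts for Mir124a-1, Mir124a-2, Mir124a-3 and Mir9-2. In the replicate 1 library each of these also had fewer than 10 counts, so they were low in both. Since miR-124 and miR-9 come from several gene copies, the counts of those genes are uncertain. Over 10 muscle genes the sums were 73.7 and 157120 CPM, with 4 and 9 genes detected, and over 5 Hox cluster genes 228 and 19112 CPM, with 4 and 5 detected. Nearly all of the muscle sums came from a single gene, Mir206, with 70.7 and 156302 CPM. The muscle genes at 0 in the replicate 1 library were Mir1a-1, Mir1a-2, Mir133a-1, Mir133a-2, Mir208a and Mir208b. As miR-1a and miR-133a also come from more than 1 gene copy, the counts of those genes are uncertain too. Mir133a-2 was at 0 in both libraries, and Mir1a-1 had fewer than 10 counts in the library labelled replicate 2. Over 3 red blood cell genes the sums were 45.3 and 153 CPM, all detected in both. In the library labelled replicate 2 the markers thus go against the tissue that its label names. Values are therefore given for each library, some with their mean, and the part these differences play in any result was not tested.

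Summed over its hairpins, the cluster held a larger share of miRNA counts in the replicate 1 library. Its 6 hairpins had 45662 counts there, 1.52% of miRNA counts (exact 95% binomial interval 1.51 to 1.54), and 15621 counts, 0.437% (0.430 to 0.443), in the library labelled replicate 2. The mean was 0.980% ± 0.768 (SD, n = 2). As the markers of the libraries differ, it describes these 2 libraries only and gives no level for the cortex. The ratio of the shares, replicate 1 over replicate 2, was 3.49 (95% interval 3.42 to 3.55). With TMM scaling (trimmed mean of M values, which assumes that the typical gene does not change) it was 1.32 (1.29 to 1.34). On the log2 scale the ratio was 1.80 with total counts, beside a median of 1.35 over all tested genes. With TMM it was 0.40, beside a median of 0.26. Mir17 held most of the sum in both libraries, and with TMM the members differed in direction, as given below. In bulk tissue, fewer cells of a type and less RNA per cell cannot be told apart. All intervals here cover counting error only, and reads amplified without molecular identifiers are not independent molecules. As a share of all reads, the cluster held 0.455% and 0.230%.

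Mir17, whose guide founds the miR-17 family, was the most abundant hairpin of the cluster in both libraries. It had 30006 counts, or 10005 CPM, in the replicate 1 library and 8526 counts, or 2383 CPM, in the library labelled replicate 2. Its mean over these unlike libraries was 6194 ± 5390 CPM (SD, n = 2), which gives no level for the cortex. Mir17 ranked 22 and 57 among all counted miRNA genes. Mir20a, with the same seed, followed with 8974 counts (2992 CPM) and 3380 counts (945 CPM). Mir92-1 came next with 4477 counts (1493 CPM) and 2297 counts (642 CPM). Mir18, the single hairpin of its seed in the cluster, had 2177 counts (726 CPM) and 1405 counts (393 CPM). These 4 hairpins kept this order in both libraries, and in each library the 95% counting intervals of neighbours in the order did not overlap. Their ranks ran from 22 to 109 and from 57 to 128. The count of Mir92-1 may be a lower limit, as given above, and the counting intervals do not cover that. Its place in the order is therefore uncertain.

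The miR-19 hairpins were close to the limit of detection. Mir19a had 8 counts (2.67 CPM, interval 1.15 to 5.26) in the replicate 1 library and 10 counts (2.79 CPM, interval 1.34 to 5.14) in the library labelled replicate 2. Mir19b-1 had 20 counts (6.67 CPM, interval 4.07 to 10.3) and 3 counts (0.838 CPM, interval 0.173 to 2.45). A count of 0 allows up to 1.00 CPM in the replicate 1 library and 0.838 CPM in the library labelled replicate 2, so Mir19b-1 stood at that limit in the library labelled replicate 2. Mir19b-1 had 2.50 counts for each of Mir19a in the replicate 1 library (95% interval 1.055 to 6.56) and 0.30 in the library labelled replicate 2 (0.0531 to 1.17). The ratio between the libraries was 7.85 (1.51 to 56.3), and the interval includes equality only for the library labelled replicate 2. The counts of Mir19b-1 may be lower limits, as given above, and none of these intervals covers that.

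Between the hairpins of the transcript the counts thus spanned more than 3 orders of magnitude. Mir17 had 3751 times as many counts as Mir19a (95% interval 1903 to 8689) in the replicate 1 library and 853 times as many (463 to 1779) in the library labelled replicate 2. In the library labelled replicate 2 the lowest hairpin was Mir19b-1, which Mir17 exceeded 2842 times (972 to 13784). The count of Mir19b-1 may be a lower limit, as given above, so that ratio and its place as the lowest hairpin are uncertain. The order was the same per nt of hairpin, where the 4 abundant members had 357, 83.9, 56.0 and 22.7 counts in the replicate 1 library, in the order Mir17, Mir20a, Mir92-1 and Mir18. The same members had 102, 31.6, 28.7 and 14.6 counts per nt in the library labelled replicate 2.

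**Figure D1:**
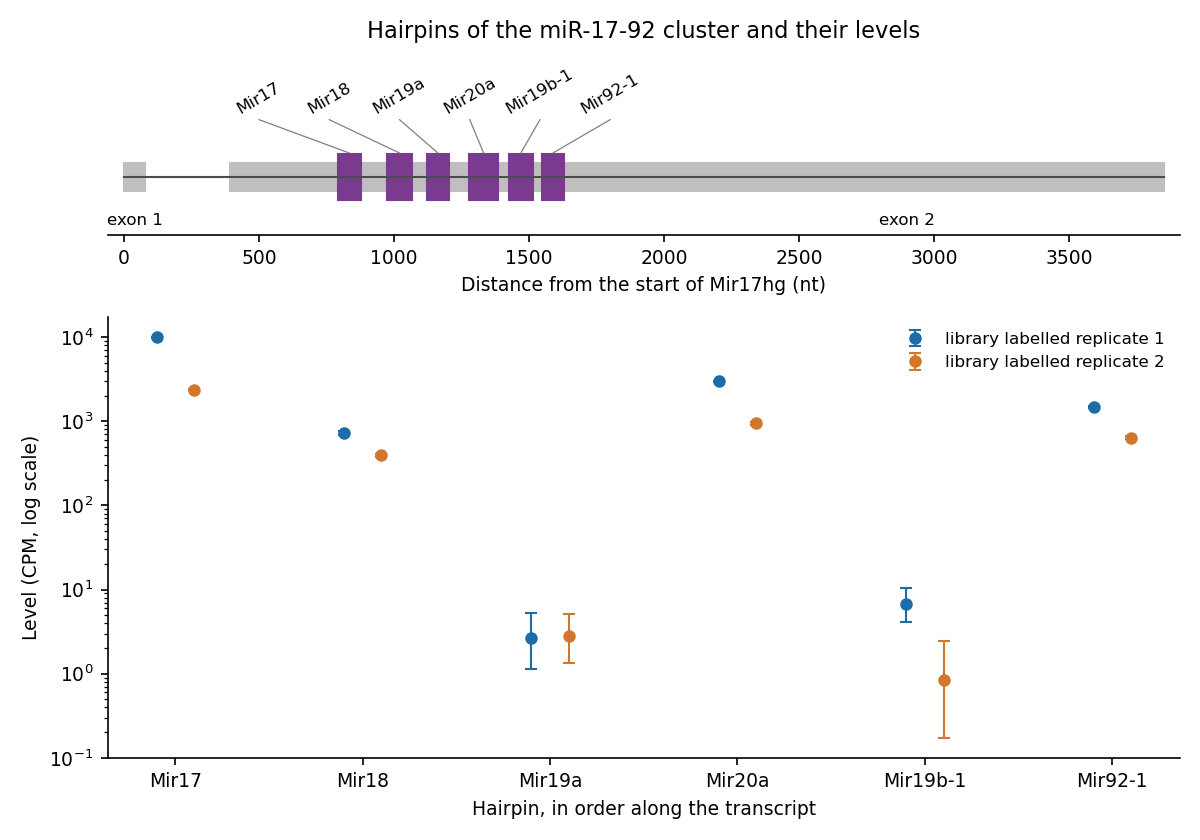
The upper panel maps the 6 hairpins (purple) on the exons (grey) of Mir17hg by distance from its start in nt. The lower panel plots the CPM of each hairpin on a log axis in the replicate 1 library (blue) and the library labelled replicate 2 (orange), with exact 95% counting intervals: Mir17, Mir18, Mir20a and Mir92-1 lie between 393 and 10005 CPM, and Mir19a and Mir19b-1 below 7 CPM.

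Since the hairpins come from a single transcript, their shares within the cluster can be compared between the libraries with no scaling. The division of the counts moved from Mir17 towards Mir18 and Mir92-1 in the library labelled replicate 2. The counts of Mir92-1 and Mir19b-1 may be lower limits, as given above, and the intervals of the shares do not cover that. Among only the 4 members without an annotated copy, Mir17 held 72.9% in the replicate 1 library and 64.0% in the library labelled replicate 2. Mir18 held 5.29% and 10.5% of that sum. The shares below are of all 6 members. Mir17 held 65.7% of the cluster's counts (interval 65.3 to 66.1) in the replicate 1 library and 54.6% (53.8 to 55.4) in the library labelled replicate 2. The odds of a cluster read being Mir17 were 1.59 times as high in the replicate 1 library (conditional exact 95% interval 1.54 to 1.66).

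Mir18 held 4.77% (4.57 to 4.97) and 8.99% (8.55 to 9.45), an odds ratio of 0.507 (0.472 to 0.544), replicate 1 over replicate 2. Mir92-1 held 9.80% (9.53 to 10.1) and 14.7% (14.2 to 15.3), an odds ratio of 0.631 (0.597 to 0.666). Mir20a moved least, with 19.7% and 21.6%, an odds ratio of 0.886 (0.847 to 0.926). The shares of these 4 hairpins differed between the libraries by more than counting error. Mir19a held 0.0175% and 0.0640%, an odds ratio of 0.274 (0.0938 to 0.770), and Mir19b-1 held 0.0438% and 0.0192%, an odds ratio of 2.28 (0.676 to 12.0), whose interval includes equality.

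The hairpins of 1 seed family were no exception. Mir17 had 3.34 counts for each count of Mir20a (3.27 to 3.42) in the replicate 1 library and 2.52 (2.42 to 2.63) in the library labelled replicate 2, a ratio of 1.33 between the libraries (1.27 to 1.39). Against Mir18, the next hairpin along the transcript, Mir17 had 13.8 (13.2 to 14.4) and 6.07 (5.73 to 6.43) counts for each, a ratio of 2.27 (2.11 to 2.44). Against Mir92-1, the last hairpin, the numbers were 6.70 (6.49 to 6.92) and 3.71 (3.54 to 3.89), a ratio of 1.81 (1.71 to 1.91). By these counts the largest of the 3 shifts was between neighbours, 96 nt apart. The intervals against Mir92-1 do not cover that its count may be a lower limit. By seed family, Mir17 and Mir20a together held 85.4% and 76.2% of the cluster's counts, and the miR-19 pair held 0.0613% and 0.0832%.

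**Figure D2:**
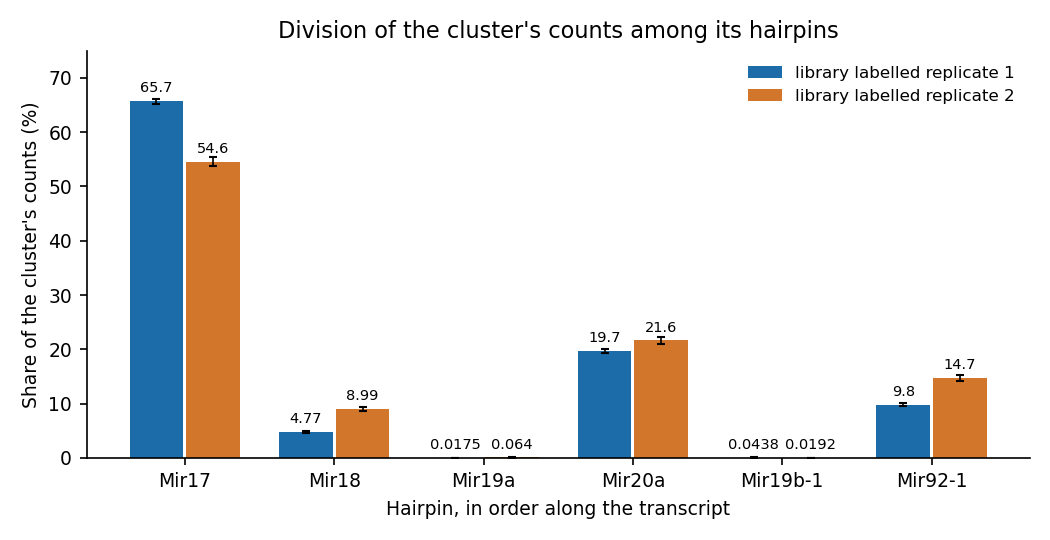
Bars give the share of the cluster's counts, in percent, held by each hairpin in the replicate 1 library (blue) and the library labelled replicate 2 (orange), with exact 95% counting intervals. Mir17 holds 65.7% and 54.6%, while Mir18 and Mir92-1 hold larger shares in the library labelled replicate 2.

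The sign of the log2 ratio between the libraries changed with the scaling for 2 of the 6 hairpins, Mir18 and Mir92-1. Each gene was compared by a two-sided exact binomial test with TMM scaling, adjusted by Benjamini-Hochberg over all 463 genes with at least 10 counts summed. It compares the reads of these libraries with counting error alone, not conditions. With TMM, 2 members (Mir17 and Mir20a) were higher in the replicate 1 library, where 39.3% of all tested genes were. A further 3 members (Mir18, Mir19a and Mir92-1) were lower, where 40.6% of all tested genes were. With total counts 5 members were higher and 0 lower, against 63.7% and 26.3% of all tested genes. The member that did not pass was Mir19b-1 with TMM (adjusted p = 0.087) and Mir19a with total counts (adjusted p = 1.0).

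Total counts lay 1.40 above TMM on the log2 scale, and the genes tested had a median log2 ratio of 0.26 with TMM, against 1.35 with total counts. Log2 ratios are replicate 1 over replicate 2 and carry a prior of 1 CPM, and their intervals carry none. Mir17 was higher in the replicate 1 library under both scalings, with a log2 ratio of 0.67 (interval 0.63 to 0.70) with TMM and 2.07 (2.04 to 2.10) with total counts. Mir20a was likewise higher under both, at 0.26 (0.20 to 0.32) and 1.66 (1.61 to 1.72). With TMM the Benjamini-Hochberg adjusted p of Mir20a was 3.21e-19, and that of Mir17 was too small for the software to write.

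The ratio of Mir18 changed sign with the scaling. Its log2 ratio was -0.52 (-0.61 to -0.42, adjusted p = 1.23e-24) with TMM and 0.88 (0.79 to 0.98) with total counts. Mir92-1 did the same, at -0.19 (-0.26 to -0.11, adjusted p = 9.67e-07) and 1.22 (1.14 to 1.29). Both lay below the median ratio of all tested genes under both scalings.

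Mir19a had a log2 ratio of -1.07 (adjusted p = 0.0480) with TMM and -0.05 with total counts. Its TMM call rests on 18 counts in all and ended without the filter on low counts (adjusted p = 0.0741) and with a spread of 10% beyond counting error (negative binomial exact test in edgeR, adjusted p = 0.0981). Under that same spread Mir17 and Mir18 passed in opposite directions, while Mir20a (adjusted p = 0.252) and Mir92-1 (adjusted p = 0.421) did not. The interval of the Mir19a ratio was -3.01 to 0.02 with TMM and -1.61 to 1.43 with total counts, and both include 0. Mir19b-1, with 20 and 3 counts, had a log2 ratio of 1.11 (-0.17 to 3.98) with TMM and 2.06 (1.24 to 5.39) with total counts. Relative to the median of all tested genes, Mir17 lay 0.72 higher with total counts and 0.41 higher with TMM, Mir20a 0.31 and 0.00 higher, Mir92-1 at -0.14 and -0.44, and Mir18 at -0.47 and -0.77. The median over the 6 members was 0.04 with TMM and 1.44 with total counts.

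**Figure D3:**
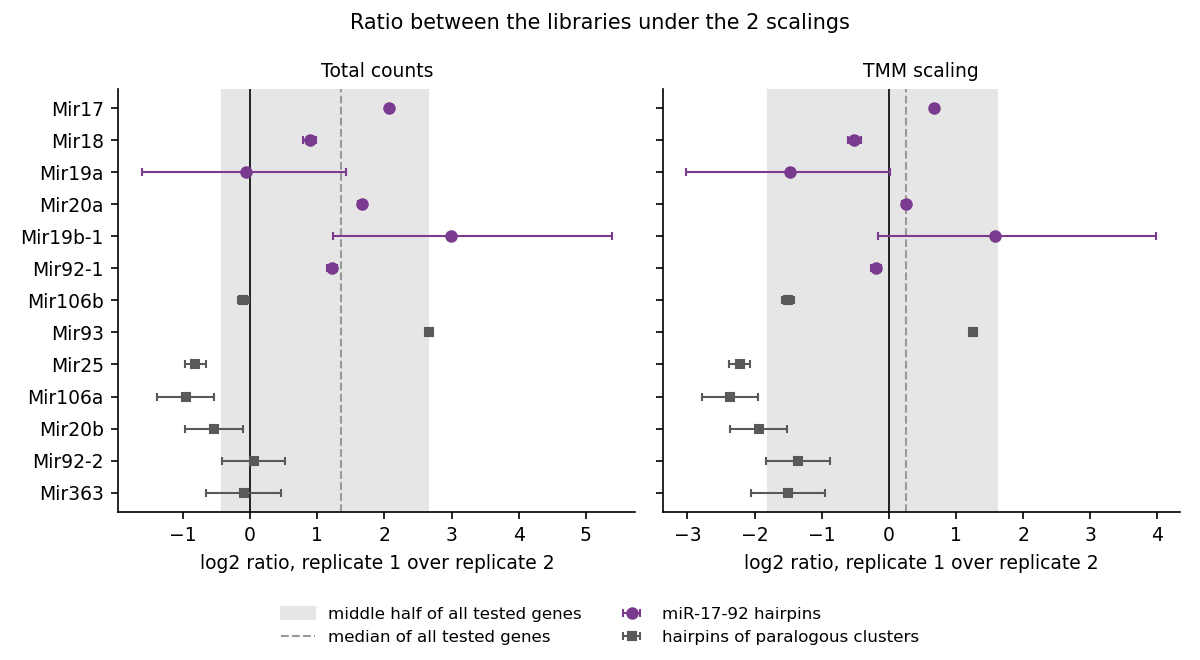
Log2 ratios of counts, replicate 1 over replicate 2 and with no prior, are plotted with exact 95% counting intervals for the 6 members (purple circles) and the tested hairpins of the paralogous clusters (grey squares), with total counts on the left and TMM on the right. Shading spans the 25th to 75th percentile and the dashed line the median of all 463 tested genes: Mir17 and Mir20a lie above 0 in both panels, Mir18 and Mir92-1 only on the left.

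The mammalian genome holds paralogs of the cluster with the same seeds, the Mir106b-25 cluster in an intron of the replication gene Mcm7 and the Mir106a-363 cluster on the X chromosome. Their 9 genes are given beside the members. With TMM 1 of the 7 tested paralogs was higher in the replicate 1 library and 6 were lower, where 39.3% and 40.6% of all tested genes were. With total counts 1 was higher, 4 were lower and 2 did not pass, beside 63.7% higher and 26.3% lower among all tested genes. The Mir106b-25 genes held 0.926% and 0.236% of all miRNA counts, and the Mir106a-363 genes 0.00907% and 0.0124%, against 1.52% and 0.437% for the miR-17-92 hairpins.

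Mir93, with the seed of Mir17, had 25213 counts (8407 CPM) in the replicate 1 library and 4757 counts (1330 CPM) in the library labelled replicate 2. Its cluster neighbours Mir106b, with 2075 and 2652 counts, and Mir25, with 494 and 1038, had more counts in the library labelled replicate 2. Mir93 had 51.0 counts (46.7 to 55.9) and 4.58 counts (4.28 to 4.91) for each count of Mir25, a ratio of 11.1 between the libraries (9.95 to 12.5). The matching pair of the miR-17-92 cluster, Mir17 over Mir92-1, had a ratio of 1.81 (1.71 to 1.91). The intervals of these ratios did not overlap, and no test of their difference was run. The count of Mir92-1 may be a lower limit, as given above, and the intervals do not cover that. Mir106a, whose guide differs from that of Mir17 by the single substitution U10A, counted from the 5′ end, had 70 and 162 counts, and Mir20b had 74 and 128.

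The share of each seed family's hairpin counts that came from the cluster differed between families. These counts do not separate the arms, so how many of the reads carried the seed is not known. For the seed of Mir17 and Mir20a, 7 hairpins were counted, and the 2 in the cluster gave 58.7% of their counts in the replicate 1 library and 60.7% in the library labelled replicate 2. Mir17 alone gave 45.2% and 43.5% of this family, and Mir93 38.0% and 24.3%. The family as a whole took 2.21% and 0.548% of miRNA counts.

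For the seed of Mir92-1, 7 hairpins were counted, and Mir92-1 gave 29.0% (28.3 to 29.7) and 62.8% (61.2 to 64.4). Mir92b, a miRNA of neural progenitors, had 10118 and 16 counts and gave 65.5% and 0.438% of the family. Mir25 gave 3.20% and 28.4%, and Mir32 1.48% and 4.29%. By these counts Mir92b led in the replicate 1 library and Mir92-1 in the library labelled replicate 2. The count of Mir92-1 may be a lower limit, as given above, and the intervals of its share do not cover that. If reads with several sites were left uncounted, the counts of Mir92-1 hold no reads of the guide alone. Mir92-2, the hairpin with the same guide, had 73 and 84 counts, which is 1 for every 61.3 (48.7 to 78.4) and 27.3 (22.0 to 34.4) counts of Mir92-1.

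**Figure D4:**
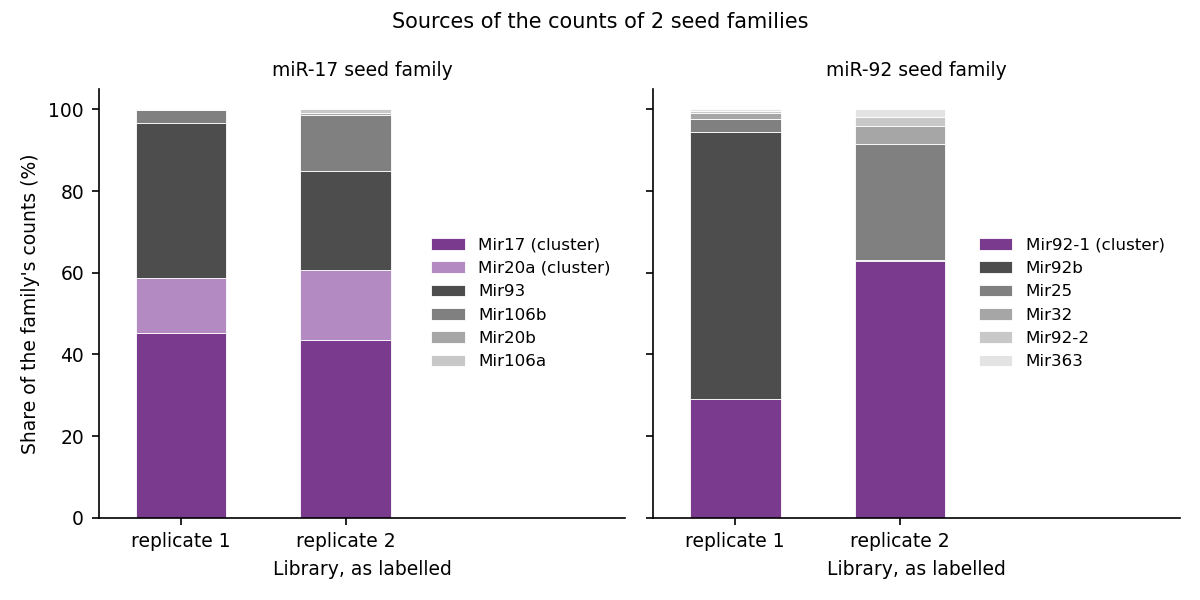
Stacked bars give the share of a seed family's counts, in percent, by source hairpin in the replicate 1 library (left bar) and the library labelled replicate 2 (right bar), with hairpins of the cluster in purple and others in grey. In the miR-17 family the cluster gives 58.7% and 60.7%, and in the miR-92 family 29.0% and 62.8%.

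For the seed of Mir18, 2 hairpins were counted, and Mir18 gave all but 1 of 2178 counts in the replicate 1 library and all but 3 of 1408 in the library labelled replicate 2. For the miR-19 seed the 3 hairpins had 31 and 16 counts in all. Mir19b-2, with the same guide as Mir19b-1, had 3 counts in each library. The counts of both miR-19b hairpins may be lower limits, since they share the guide, so they set no upper level for this seed.

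Among 195 other miRNA genes with at least 100 counts in each library, those nearest to the summed cluster, by Euclidean distance of log2(CPM + 1) over the 2 libraries, were Mir652, Mirlet7e and Mir100. The distances were 0.48 for Mir652, 0.52 for Mirlet7e and 0.55 for Mir100. Mir652 had 14610 and 6059 CPM, Mirlet7e 19130 and 3303 CPM, and Mir100 12489 and 3146 CPM, beside 15226 and 4366 CPM for the cluster. With 2 libraries this likeness is a description of level only.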

How the data were processed

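The deposited values are unnormalized read counts of 1 library per table, 1 row per miRNA hairpin gene. They were made on mm10 with GENCODE M21, per the text deposited beside them. Aligner and counter: not given in the sources used here. Their layout (4 leading entries, then unstranded, own-strand and opposite-strand counts) is that of STAR gene counts. Own-strand counts were used as CPM, and entries without a gene stayed out of library sizes (70.1% and 47.4% of reads).

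The libraries were compared by an exact binomial test per gene with TMM factors of 1.63 and 0.615, over genes with at least 10 counts summed, Benjamini-Hochberg adjusted at 0.05. No edgeR quasi-likelihood fit was possible with 1 library an arm, and permuting 2 libraries cannot give p below 0.5. Intervals are exact (Clopper-Pearson, or conditional for odds ratios) at 95%. A count of 0 was given a limit of 3 counts. Guides were searched in RefSeq hairpins and GENCODE transcripts, and the planned search of the genome was not run. RefSeq hairpins matched 971 of 2202 genes by position. The test was run on simulated counts with counting error only (Poisson) and total-count scaling. That run cannot show how the test behaves with spread beyond counting error or with TMM.

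Members and lists were chosen with earlier results of these data known. The text names the 6 members, paralogs with at least 100 counts in either library and the 3 nearest genes. Mir92b, Mir32, Mir92-2 and Mir19b-2 were picked once their values had been seen, as sources of the same seeds or guides. Mir206 was also picked once its values had been seen, as the main source of the muscle sums. Alternatives are in the closing section. The versions were Python 3.11.15 with pandas 2.3.3, scipy 1.17.1, numpy 2.4.6 and matplotlib 3.10.9, and R 4.3.3 with DESeq2 1.42.0 (size factors) and edgeR 4.0.16.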

Additional observations from a re-analysis of the deposited data

Results flagged for a closer look

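Reads outside the gene counts bear on the members with annotated copies. The entry for reads placed at several sites held 4626252 reads in the replicate 1 library and 2706949 in the library labelled replicate 2. Both exceed the 3 counts allowed by a count of 0, and the entry was left out of every comparison. How many of these reads carry the guides of Mir19b-1 or Mir92-1 was not tested. The opposite-strand column held 0 counts at all 6 members in both libraries, and their unstranded counts equalled their own-strand counts.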

How the results depend on the processing

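With TMM 2 members were higher and 3 lower in the replicate 1 library. With total counts, also without Mirlet7i (the most abundant gene) or without Mir206 (added after seeing the data), 5 were higher and 0 lower. Allowing a spread of 0.1 (coefficient of variation) beyond counting error, by the negative binomial exact test, gave 1 higher (Mir17) and 1 lower (Mir18). DESeq2 size factors, unstranded counts, no filter and a filter of 100 counts kept both counts within 1.5 times. Unstranded counts left the members' own counts unchanged, and the filter of 100 counts left Mir19a and Mir19b-1 untested. The prior of 0.1 CPM enters only the log2 ratio and could not change which members were called. Mir18 turned to a log2 ratio of 0.88 with total counts, 0.96 without Mirlet7i and 0.64 without Mir206. Mir92-1 turned to 1.22, 1.29 and 0.97 under the same settings, and Mir19a to 0.0052 without Mirlet7i, where its adjusted p was 1.0. These reversals come from the scaling, which is their only change. For the counts of members called, the shares over all tested genes are given above for TMM and for total counts. They are not given for the other settings, so those counts cannot be set against all genes.

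Leaving out each library gives the other's values: the cluster's share of counts was 0.437% and 1.52%, and the share within the cluster ran from 54.6% to 65.7% for Mir17, 19.7% to 21.6% for Mir20a, 9.80% to 14.7% for Mir92-1, 4.77% to 8.99% for Mir18, 0.0175% to 0.0640% for Mir19a and 0.0192% to 0.0438% for Mir19b-1. Among only the 4 members without an annotated copy, the mean share of Mir17 was 68.4% (72.9% in the replicate 1 library and 64.0% in the library labelled replicate 2) and that of Mir20a 23.6% (21.8% and 25.4%), since Mir92-1 left the sum. No paired analysis was possible because there is 1 group. Depth limits Mir19a and Mir19b-1, at 3 to 20 counts.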
